A study of Homo sapiens with 10 samples.

Results

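Laminins are the large glycoproteins on which basement membranes are built, and each molecule is a trimer of 1 alpha, 1 beta and 1 gamma chain. The alpha chain carries the sites that bind integrins and dystroglycan on the cell surface, while the beta and gamma chains complete the coiled trimer and, in most laminins, link it to other laminins and to nidogen. Epithelia of the prostate and skin are anchored by a trimer that holds LAMA3 and LAMB3, the ligand of the hemidesmosome, whereas trimers with LAMA5, LAMB1, LAMB2 and LAMC1 occur in most basement membranes, and LAMA4 and LAMA2 are known from vessels, fat and muscle.

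The genes described here are 9 laminin chain genes, LAMA1, LAMA2, LAMA3, LAMA4, LAMA5, LAMB1, LAMB2, LAMB3 and LAMC1, chosen by name. All 9 were found among the 23170 genes listed, and they hold 19 of the 37557 isoform entries. The study sequenced RNA of 10 samples in 4 groups, all from PC3, an established line of human prostate cancer cells. PC3-Epi (2 samples) is a luciferase-expressing subpopulation of PC3 kept for its epithelial form, and PC3-EMT14 (3 samples) is 1 mesenchymal population recovered from PC3-Epi cells after co-culture with IL4-treated human macrophages. A lentiviral construct drives the zinc finger transcription factor OVOL1 in the line PC3-EMT14-OVOL1 (3 samples), made from PC3-EMT14, and OVOL2 in its counterpart PC3-EMT14-OVOL2 (2 samples). By the paper's methods the 2 constructs differ, OVOL1 being a purchased clone and OVOL2 cloned into a vector that adds an epitope tag. Factor and construct therefore cannot be told apart between the OVOL lines. The labels do not say whether the PC3-EMT14 samples carried an empty vector. Both OVOL lines come from that 1 mesenchymal population, and each is set here against PC3-EMT14 or against the other OVOL line.

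The deposited values are FPKM, fragments scaled by transcript length and, between libraries, by upper-quartile scaling, which allow levels to be compared between genes. Each line has 1 value per gene in each comparison, pooled over its samples by the authors, so the spread between samples and whether the groups overlap cannot be seen. The tables also carry the authors' own test results, which were set aside, and the values here are given without an error or a test. The depth of the samples is unknown. A difference was counted where it reached 2-fold with at least 1 FPKM in the higher line, and log2 fold changes carry no pseudocount. The levels of lines that appear in more than 1 table differ by a constant factor of at most 1.03, so folds were taken within a table, and levels set side by side across tables carry that factor.

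The labels were set against marker genes first. OVOL1 was at 11.3 FPKM in the OVOL1 line against 0.0238 in PC3-EMT14, and OVOL2 was at 831 FPKM in the OVOL2 line against 0.370, far above its 9.91 in PC3-Epi. The 2 transgenes thus stood at very different levels, and PC3-Epi held OVOL1 at 4.25 FPKM. Of 7 epithelial markers, 7 were at least 2-fold higher in PC3-Epi than in PC3-EMT14, 5 with OVOL1 and 6 with OVOL2. Over all genes, 7.37%, 2.43% and 4.42% were that much higher in the same order. The 6 with OVOL2 include ESRP1, whose estimate there is marked FAIL by the authors' software. Of 5 mesenchymal markers, 2 (VIM and ZEB1) were at least 2-fold lower in PC3-Epi, 0 with OVOL1 and 4 with OVOL2. Over all genes, 8.34%, 1.52% and 2.92% were that much lower in the same order, and 0 of 5 with OVOL1 is near its share. Of 8 macrophage markers, 7 were at or below 0.0991 FPKM in every line, the leukocyte gene PTPRC and the monocyte gene CD14 among them, and their summed level ran from 0.169 FPKM in the OVOL1 line to 0.302 in the OVOL2 line. The exception was the lysosomal gene CD68, at 54.1 FPKM in PC3-EMT14 and 13.2 in PC3-Epi. In bulk RNA, fewer cells of a type and less RNA per cell cannot be told apart.

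Of the 9 chains, 7 reached 1 FPKM in at least 1 line, and LAMA1 and LAMA2 did not. The most abundant chains in every line were LAMA3 among the alpha chains and LAMB3 among the beta chains. With OVOL2, LAMA3 and LAMB3 were at least 2-fold higher than in PC3-EMT14, as were 4.42% of all genes, and the chains of the general basement membrane laminins were not. In PC3-Epi, LAMA5 and LAMB2 were at least 2-fold lower than in PC3-EMT14, as were 8.34% of all genes. LAMA4 was just past 2-fold higher there, as were 7.37% of all genes, but its estimate is marked FAIL by the authors' software and it falls short of 2-fold when the columns are rescaled. With OVOL1 no chain reached 2-fold.

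**Figure D1:**
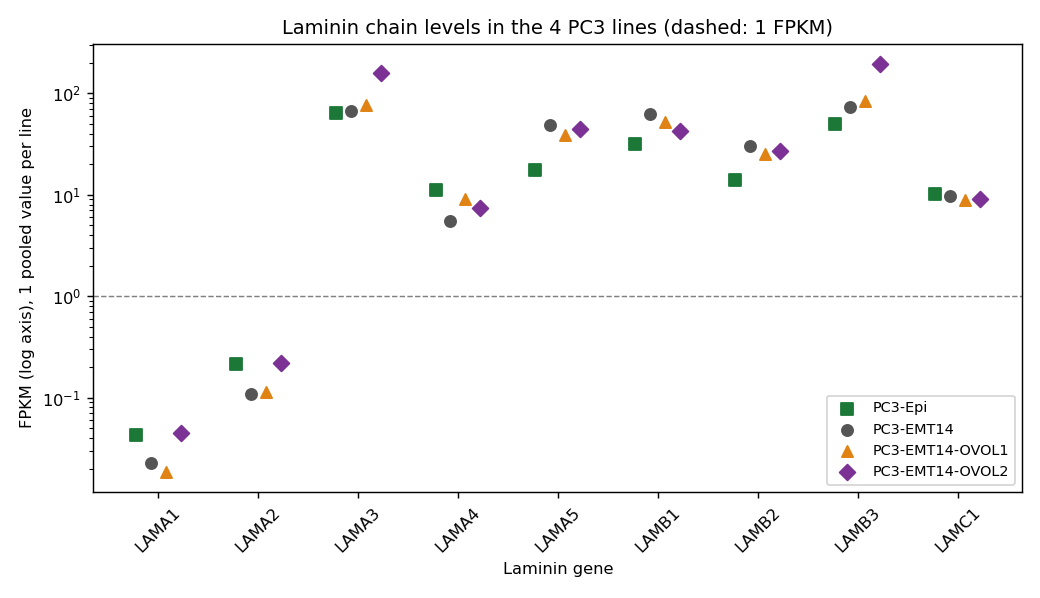
Level of the 9 laminin chains in the 4 lines, in FPKM on a log axis, with 1 pooled value per line and the 1 FPKM minimum dashed. LAMA3 and LAMB3 stand highest in the OVOL2 line, LAMA5, LAMB1 and LAMB2 lowest in PC3-Epi, and LAMA1 and LAMA2 stay below 1 FPKM in all 4.

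LAMB3, the beta chain known from the hemidesmosomal trimer, was the member with the widest range, 1.998 log2 units over the 4 lines. Its locus is chr1:209788218-209825820 (hg19, minus strand). Its level was 49.8 FPKM in PC3-Epi, 73.2 in PC3-EMT14, 83.6 in the OVOL1 line and 193 in the OVOL2 line. The OVOL2 line thus stood apart from the other lines at the high end and PC3-Epi at the low end. Against PC3-EMT14 this was 2.72-fold higher with OVOL2, a log2 fold change of 1.44, where 2.81% of all genes had a larger one. With OVOL1 the log2 fold change was 0.22, and in PC3-Epi it was -0.55. In the direct comparison of the 2 OVOL lines, LAMB3 was 2.33-fold higher with OVOL2.

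LAMA3, the alpha chain of the same trimer and the one that integrins of the hemidesmosome bind, is on the plus strand at chr18:21269562-21535029 (hg19). Its level was 63.7 FPKM in PC3-Epi, 66.2 in PC3-EMT14, 77.4 in the OVOL1 line and 158 in the OVOL2 line. PC3-Epi and PC3-EMT14 were 1.04-fold apart, and the OVOL2 line alone was past 2-fold against PC3-EMT14, at 2.47-fold. Between the OVOL lines LAMA3 was 2.07-fold higher with OVOL2. The 2 chains thus stood 2.47-fold and 2.72-fold higher with OVOL2 than in PC3-EMT14. In PC3-Epi they differed from each other, with LAMB3 1.47-fold lower than in PC3-EMT14 and LAMA3 1.04-fold lower.

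LAMA5, the alpha chain of the widespread epithelial laminins, is on the minus strand at chr20:60884121-60942368 (hg19). It was at 17.4 FPKM in PC3-Epi, 48.9 in PC3-EMT14, 39.1 in the OVOL1 line and 44.5 in the OVOL2 line. PC3-Epi stood apart, 2.81-fold below PC3-EMT14, while the OVOL1 line was 1.22-fold and the OVOL2 line 1.06-fold below it. This was the lowest log2 fold change of the 9 chains in that comparison, -1.49.

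The promoters of these 3 chains, which had the widest ranges of the set, are shown for the E-box CACCTG, searched on both strands, a hexamer that ZEB1 is known to bind. Promoters here are the 250 bases before and 50 after a transcript start from RefSeq (GRCh38.p14). Of the 9 chains, 8 had a promoter in that table, 10 promoters in all, and LAMA1 had none. The hexamer was in 3 of the 10, against 20.6% of 35116 promoters of the same length, and the listed promoters of LAMA2, LAMA4, LAMB1, LAMB2 and LAMC1 did not hold it. With so few promoters, 3 of 10 is near that share. Only the windows that hold the hexamer are printed, and a relation between the hexamer and the range of a chain was not tested. The letters CCGTTA, searched on both strands too, a core known for OVO proteins, were in 0 of the 10, against 3.07% of all promoters. The OVOL2 consensus given by the authors also allows other cores, such as CTGTTA, which the LAMA3 window below holds. These other cores were not counted, so the 0 covers CCGTTA only and does not show that the promoters lack OVOL-type cores. Each window is printed in the direction of transcription, with the E-box, or its reverse complement in LAMB3 and LAMA5, in capitals. The window of LAMA3 is chr18:23872770-23873069 (plus strand), that of LAMB3 chr1:209652376-209652675 (minus strand, 1 of 3 listed starts) and that of LAMA5 chr20:62367263-62367562 (minus strand).
LAMA3: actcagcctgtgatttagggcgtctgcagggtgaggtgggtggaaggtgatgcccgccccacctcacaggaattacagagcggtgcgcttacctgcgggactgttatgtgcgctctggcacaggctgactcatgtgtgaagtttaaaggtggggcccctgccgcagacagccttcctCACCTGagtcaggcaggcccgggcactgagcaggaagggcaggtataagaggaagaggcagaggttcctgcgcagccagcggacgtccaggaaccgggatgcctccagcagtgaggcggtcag
LAMB3: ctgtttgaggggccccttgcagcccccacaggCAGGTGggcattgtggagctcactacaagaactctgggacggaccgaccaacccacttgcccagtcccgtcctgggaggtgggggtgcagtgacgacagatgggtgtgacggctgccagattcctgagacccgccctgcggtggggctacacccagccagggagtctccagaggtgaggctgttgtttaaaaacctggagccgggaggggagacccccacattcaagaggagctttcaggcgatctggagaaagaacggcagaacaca
LAMA5: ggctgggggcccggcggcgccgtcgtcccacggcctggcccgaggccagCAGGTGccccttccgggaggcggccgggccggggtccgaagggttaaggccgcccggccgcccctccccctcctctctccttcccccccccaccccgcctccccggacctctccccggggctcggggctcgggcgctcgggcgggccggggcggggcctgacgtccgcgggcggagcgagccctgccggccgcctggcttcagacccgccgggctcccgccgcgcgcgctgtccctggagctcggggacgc

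The E-box begins 73 bases before the start in LAMA3, 218 in LAMB3 and 201 in LAMA5. Each of the 3 windows occurs once in the hg19 chromosome of its gene. The LAMA3 start shown lies there at 21452984, inside the listed locus and downstream of the start that opens it, while the LAMA5 start is the upstream end of its locus. The other LAMB3 starts listed lie downstream of the one shown, and their windows lack the hexamer. ZEB1 was at 7.59 FPKM in PC3-EMT14, 0.130 in PC3-Epi, 4.25 with OVOL1 and 1.77 with OVOL2. A match describes letters in a window, and binding was not measured in these libraries.

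LAMB2 and LAMB1 are the beta chains of the general laminins. LAMB2, on the minus strand at chr3:49158547-49170599 (hg19), was at 14.0 FPKM in PC3-Epi, 30.0 in PC3-EMT14, 25.0 with OVOL1 and 27.0 with OVOL2. It was 2.14-fold lower in PC3-Epi, 1.17-fold lower with OVOL1 and 1.07-fold lower with OVOL2. LAMB1, on the minus strand at chr7:107564246-107643804, was at 31.5 FPKM in PC3-Epi, 62.3 in PC3-EMT14, 52.3 with OVOL1 and 42.0 with OVOL2. PC3-EMT14 was the highest of the 4 lines for both genes. At 1.97-fold, LAMB1 in PC3-Epi lies just outside the 2-fold limit, and LAMA4 at 2.03-fold lies just inside it. The 3' part of the LAMB1 locus overlaps DLD, a mitochondrial enzyme gene on the opposite strand, and the strand setting of the libraries is not given in the sources used here.

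LAMC1 is the gamma chain of the general laminins, on the plus strand at chr1:182992595-183114727 (hg19). Its level was 10.1 FPKM in PC3-Epi, 9.65 in PC3-EMT14, 8.80 with OVOL1 and 8.98 with OVOL2. It had the narrowest range of the 7 chains over 1 FPKM, 0.17 log2 units, and the 4 comparisons put it 1.03-fold to 1.07-fold apart.

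LAMA4, the alpha chain of vessel and fat laminins, is on the minus strand at chr6:112429134-112575828 (hg19). It was at 11.2 FPKM in PC3-Epi, 5.51 in PC3-EMT14, 9.12 with OVOL1 and 7.45 with OVOL2, so PC3-EMT14 was the lowest line, the opposite of LAMB1 and LAMB2. These values are uncertain, since the authors' software marked LAMA4 as FAIL in all 4 tables, and LAMA4 overlaps a protein-coding gene on the opposite strand. Of the genes over the minimum, between 53 and 80 per table carried that mark.

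LAMA1, known from embryonic basement membranes, and LAMA2, the alpha chain of muscle laminin, were near the bottom of the tables. LAMA1 (minus strand, chr18:6941886-7117813) was at 0.0429 FPKM in PC3-Epi, 0.0227 in PC3-EMT14, 0.0186 with OVOL1 and 0.0446 with OVOL2. LAMA2 (plus strand, chr6:129204286-129837710) was at 0.215, 0.110, 0.114 and 0.220 FPKM in the same order. Both were higher in PC3-Epi and with OVOL2 than in the remaining lines, but far under the minimum of 1 FPKM, and neither was counted.

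**Figure D2:**
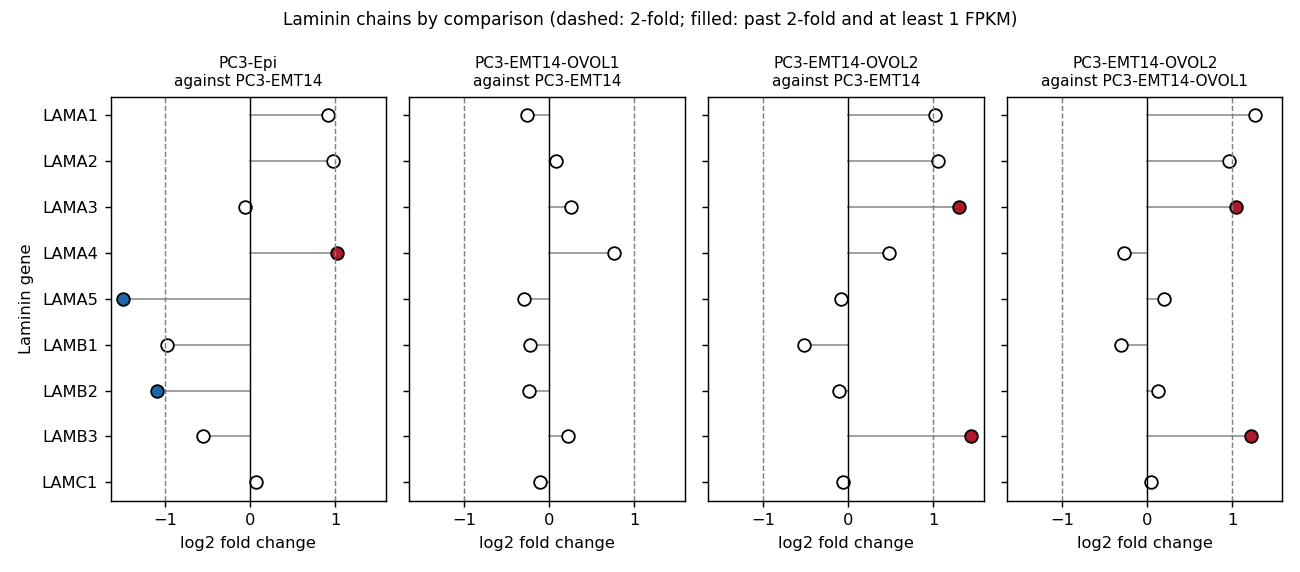
Log2 fold change of each laminin chain in the 4 comparisons, with 2-fold dashed and chains counted as past it filled (red higher, blue lower). LAMA3 and LAMB3 are filled on the right in both comparisons of the OVOL2 line, LAMA5 and LAMB2 on the left in PC3-Epi with LAMA4 on the right, and the OVOL1 panel holds no filled point.

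As a set, the chains in PC3-Epi comprised 1 of 7 that was 2-fold higher and 2 of 7 that were 2-fold lower than in PC3-EMT14, where 7.37% and 8.34% of all 12441 genes over the minimum were higher and lower. Rescaling both columns to the same sum, which shifts all log2 fold changes of that comparison by 0.13, gave 0 higher and 3 lower, since LAMA4 then falls short and LAMB1 passes. Over the 7 chains the median log2 fold change was -0.55, against -0.01 over all genes. Without LAMA4 it was -0.77, over the other 6 chains. With OVOL1, 0 of 7 were higher and 0 lower, where 2.43% and 1.52% of genes were, and the median was -0.10. With OVOL2, 2 of 7 were higher and 0 lower, where 4.42% and 2.92% of genes were. The median there was -0.06, since at any size 3 chains were higher (LAMA4 the third) and 4 were lower, by at most 1.44-fold. Between the OVOL lines, 2 of 7 were higher with OVOL2 and 0 lower, where 1.89% and 1.17% of genes were, and the median was 0.13. Over all genes the median was -0.0018 with OVOL1, -0.040 with OVOL2 and -0.040 between the OVOL lines, so the -0.06 with OVOL2 is near that of all genes. The comparisons against PC3-EMT14 share that line's samples.

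The makeup of the alpha and beta chain mRNA shows the same values as shares. The summed level of the 5 alpha chains was 92.5 FPKM in PC3-Epi, 121 in PC3-EMT14, 126 with OVOL1 and 210.4 with OVOL2. That of the beta chains was 95.4, 165, 161 and 262 FPKM in the same order, so PC3-Epi held the least and the OVOL2 line the most of both classes.

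Among the alpha chains, LAMA5 was 40.5% in PC3-EMT14 and 18.8% in PC3-Epi, with 31.1% with OVOL1 and 21.2% with OVOL2. LAMA3 went the other way, from 54.8% in PC3-EMT14 to 68.8% in PC3-Epi and 75.2% with OVOL2. In PC3-Epi the larger LAMA3 share goes with less LAMA5 at like LAMA3, and with OVOL2 it goes with more LAMA3 at like LAMA5. Among the beta chains, LAMB3 was 44.2% in PC3-EMT14 and 73.6% with OVOL2. In PC3-Epi it was 52.2%, and with OVOL1 52.0%, near each other and between those shares.

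**Figure D3:**
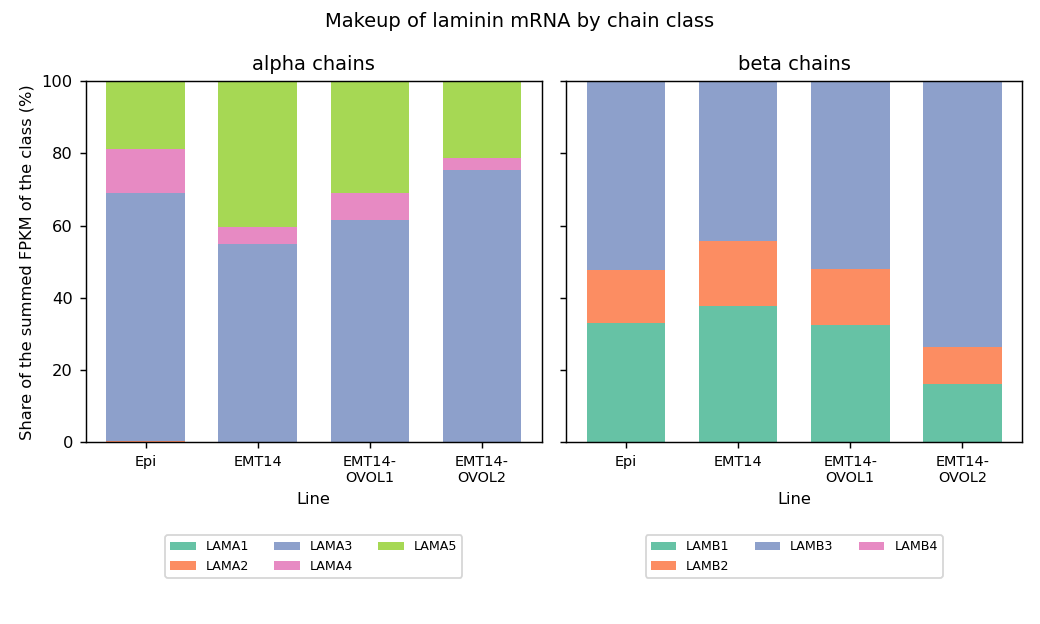
Share of each chain in the summed FPKM of its class, in percent, for alpha and beta chains in the 4 lines. The LAMA3 and LAMB3 segments are largest with OVOL2 (75.2% and 73.6%), and LAMA5 is largest in PC3-EMT14 (40.5%).

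LAMA2, LAMA3, LAMB3 and LAMA4 have more than 1 isoform entry, and those of LAMA2, which is under the minimum, are not described. The entries carry only the locus of their gene, so their exons are not known here, and they are numbered in the order in which the tables list them. LAMA3 has 4 entries, and entry 3 held most of its level in every line, from 81.6% in PC3-EMT14 to 90.9% with OVOL2. Entry 3 was at 52.3 FPKM in PC3-EMT14 and 144 with OVOL2, whereas entry 2 was at 11.7 and 14.3. The authors' software marked LAMA3 entry 3 as NOTEST in the comparisons against PC3-EMT14, and entry 2 as OK. In PC3-Epi entry 2 was at 5.92 FPKM against 12.1 in PC3-EMT14 and entry 3 at 57.6 against 54.0. The main entry was thus only 1.07-fold apart in those lines, near-equal like the gene level of LAMA3. Entry 2, a minor part of the level, was 2.05-fold lower in PC3-Epi.

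LAMB3 has 3 entries, and again entry 3 was the main one, with 83.2% of the level in PC3-EMT14 and 93.6% with OVOL2. With OVOL2 it was at 180 FPKM against 58.9 in PC3-EMT14, 3.06-fold higher. Entry 1 was at 11.4 and 9.57 FPKM, so the higher LAMB3 level with OVOL2 lay in entry 3. Entry 2 was minor, at 0.480 FPKM in PC3-EMT14 and 2.81 with OVOL2. In PC3-Epi entry 1 was at 3.79 FPKM against 11.8 in PC3-EMT14, 3.11-fold lower, and entry 3 was 1.33-fold lower.

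LAMA4 has 5 entries, all marked FAIL. Entry 4 was at 5.54 FPKM in PC3-Epi, 3.82 with OVOL1 and 1.91 with OVOL2, but at 0.00043 in PC3-EMT14. The remaining 4 entries summed to nearly equal levels in the 4 lines, so the LAMA4 difference rests mainly on an entry that was estimated at almost nothing in 1 line.

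**Figure D4:**
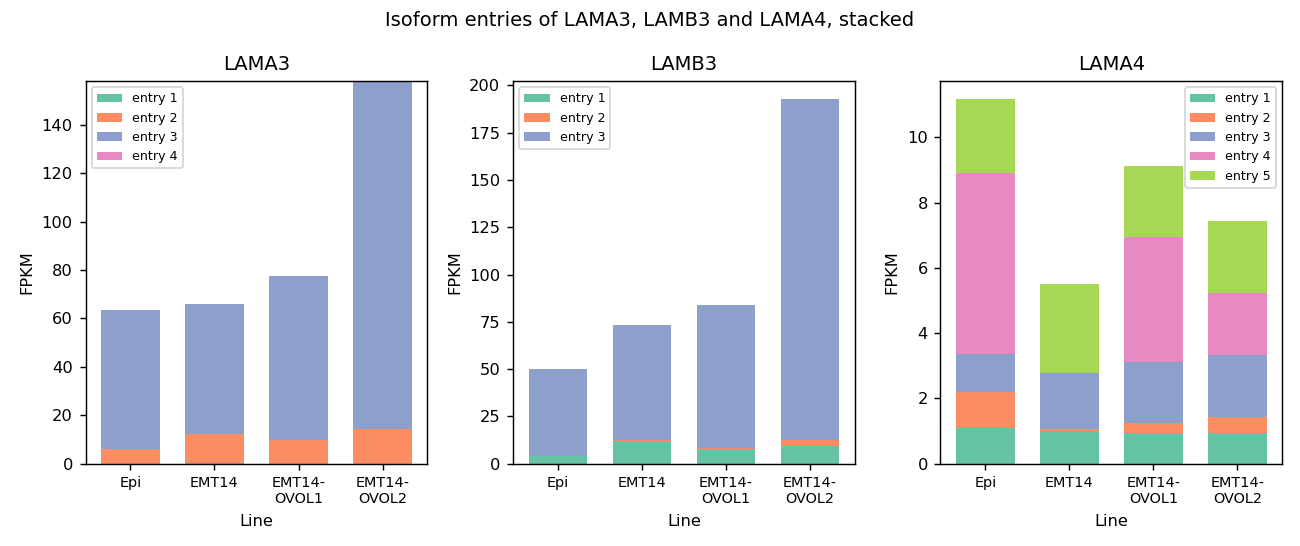
FPKM of each isoform entry of LAMA3, LAMB3 and LAMA4, stacked, in the 4 lines. Entry 3 makes up most of LAMA3 and LAMB3 and is tallest with OVOL2 (144 and 180 FPKM), and entry 4 of LAMA4 is seen in every line but PC3-EMT14.

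The genes whose pattern over the 4 lines lay nearest to LAMB3, by the distance of their log2 fold changes among 12446 genes, included FLJ35946 at 0.26 and SECTM1 at 0.26. For LAMA3 they were PRPH, SERPINB1 and RELB, at 0.12 to 0.16. For LAMA5 they were FAM116B, APOL2 and LMO7, at 0.085 to 0.098. With 4 values a gene, likeness is a description only.

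Laminin receptors and the hemidesmosome were followed in 11 genes, all over 1 FPKM. In PC3-Epi 0 were 2-fold higher and 1 was lower, with OVOL1 1 was higher and 0 lower, and with OVOL2 2 were higher and 0 lower. Over all genes the shares higher and lower were 7.37% and 8.34% in PC3-Epi, 2.43% and 1.52% with OVOL1, and 4.42% and 2.92% with OVOL2, so 1 of 11 lower in PC3-Epi is near the share over all genes. ITGB4, the integrin subunit that binds laminin in the hemidesmosome, was at 125 FPKM in PC3-Epi and 102 in PC3-EMT14. It was at 209 with OVOL1 against 99.4 in PC3-EMT14, and at 269 with OVOL2 against 98.3, so both OVOL lines were past 2-fold. COL17A1, the transmembrane collagen of the hemidesmosome, was at 7.98 FPKM with OVOL2 against 1.57, 5.07-fold higher. ITGA6, the partner of ITGB4, did not follow it, at 52.9 FPKM with OVOL2 against 79.4. The gene lower in PC3-Epi was ITGA7, a muscle laminin receptor subunit, at 1.41 against 3.81 FPKM. Over the 11 genes the median log2 fold change was -0.70 in PC3-Epi, -0.12 with OVOL1 and -0.03 with OVOL2. The medians over all genes were -0.014, -0.0018 and -0.040 in the same order.

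Of 12 basement membrane partners 9 were over the minimum, and 0 were 2-fold higher in the comparisons against PC3-EMT14, where 7.37% of all genes were in PC3-Epi, 2.43% with OVOL1 and 4.42% with OVOL2. Lower by that limit were 2 in PC3-Epi, 1 with OVOL1 and 1 with OVOL2, where 8.34%, 1.52% and 2.92% of all genes were. With so few genes, 0 higher is near those shares. The perlecan gene HSPG2 was at 3.05 FPKM in PC3-Epi against 11.3 in PC3-EMT14. The collagen IV chain COL4A6 was at 2.84 FPKM in PC3-Epi against 7.33, and at 3.01 with OVOL1 against 7.18. The collagen-binding SPARC was at 1.68 FPKM with OVOL2 against 4.18. The median log2 fold change of the 9 was -0.83 in PC3-Epi, -0.38 with OVOL1 and -0.57 with OVOL2. Over all genes it was -0.014, -0.0018 and -0.040 in the same order.

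**Figure D5:**
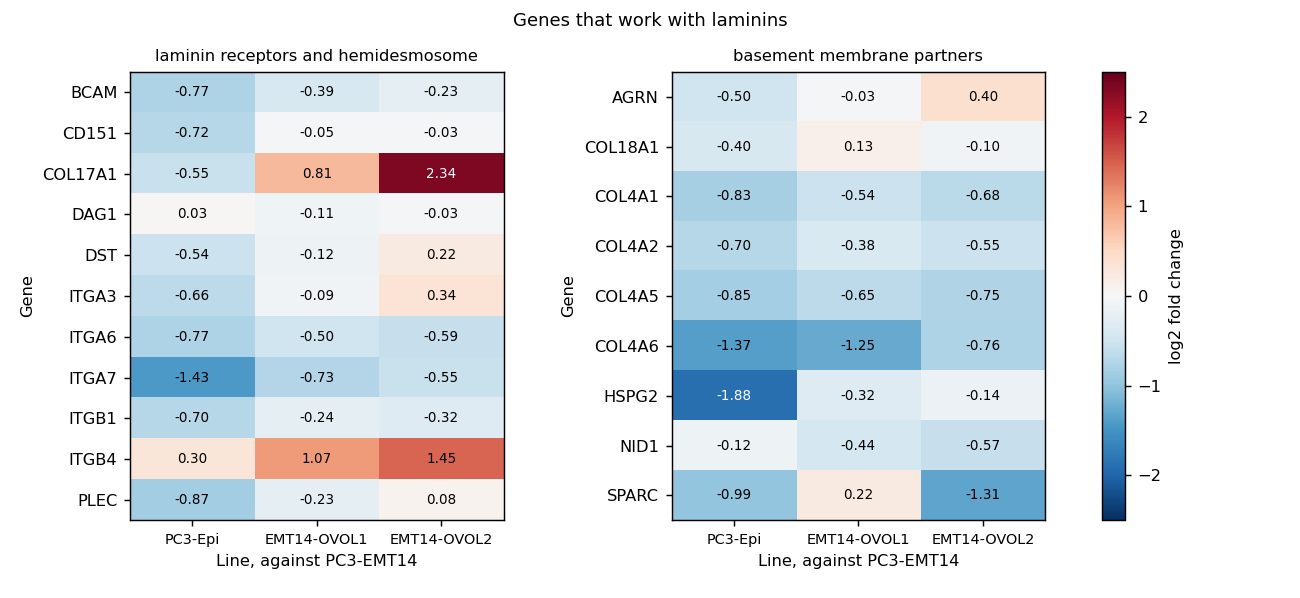
Log2 fold change against PC3-EMT14 of the laminin receptor and hemidesmosome genes (left) and basement membrane partners (right) over 1 FPKM, for PC3-Epi, the OVOL1 line and the OVOL2 line, red higher and blue lower. ITGB4 (1.45) and COL17A1 (2.34) are the darkest red cells with OVOL2, and HSPG2 (-1.88) is the darkest blue cell in PC3-Epi.

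Of 5 netrins, relatives of laminin chains that share their N-terminal domain, 2 were over the minimum. NTN4, which can disturb laminin networks, was at 19.6 FPKM in PC3-Epi against 60.3 in PC3-EMT14. NTNG1 was at 1.75 FPKM in PC3-Epi against 17.8, and at 5.77 with OVOL2 against 17.2. Of 5 proteases that cut laminins or activate the enzymes that do, MMP14 was at 21.9 FPKM in PC3-Epi against 117 in PC3-EMT14. MMP14 was also lower in both OVOL lines, short of 2-fold, by 1.97-fold with OVOL1 and 1.57-fold with OVOL2. The urokinase gene PLAU was at 2016 FPKM with OVOL2 against 953.5, and it is listed at 0 in the OVOL1 line with a mark for too many fragments, so that value was not used. Of 6 genes that glycosylate dystroglycan for laminin binding, 5 were over the minimum, and 0 of these reached 2-fold in any comparison. Over all genes, 1.17% to 8.34% were that much higher or lower, depending on the comparison and direction. With so few genes, 0 of 5 is near those shares.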

How the data were processed

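Total RNA from 10 samples was sequenced by the authors as paired-end reads and aligned to the UCSC hg19 transcriptome with TopHat. Groups were then compared in pairs with Cuffdiff, with upper-quartile scaling to compatible hits and corrections for multiply mapped reads and sequence bias. FPKM values were deposited by the authors as 1 pooled value per group in each of 4 comparisons, for genes and for isoforms (8 tables). The tables also hold the authors' fold changes, test statistics, p-values, q-values and calls, which were not used. No column of values per sample was left unused (0). Depth is unknown, and with pooled values no error, interval or test was computed.

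Columns were matched to groups by the names the tables give them. Fold changes were computed from the pooled FPKM in Python 3.11.15 with numpy 2.4.6 and pandas 2.3.3, and figures were drawn with matplotlib 3.10.9. Genes marked HIDATA, at most 3 per table, were left out of counts, a choice made after seeing the data. All 9 members are named, and genes of the lists could be named where past 2-fold in any comparison against PC3-EMT14, though not all of these are, and the marker lists are mostly given as counts. ITGA6, which did not pass, was named after its values were seen. A gene of the lists is left out of the report. The members and lists were chosen with earlier results of these data known. Alternatives changed the fold limit, the minimum, the pseudocount, the scaling and the gene-level value. Loci of genes are given on hg19 as deposited, with starts counted from 1.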

Additional observations from a re-analysis of the deposited data

How the results depend on the processing

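At a limit of 4-fold, 0 chains passed in PC3-Epi, with OVOL2 or between the OVOL lines, and at 1.5-fold 1 chain passed with OVOL1, LAMA4, whose estimate is marked FAIL. With no minimum on FPKM, 4 chains passed with OVOL2, as LAMA1 and LAMA2 then count, and the median log2 fold change became 0.48 there and -0.056 in PC3-Epi. The share of all genes passing was not computed for these limits or without the minimum. These counts therefore cannot be set against the rate over all genes. Without LAMA4, an alternative chosen after seeing the data, the PC3-Epi median was -0.77. Of 153 values of single chains under other settings, 146 moved by less than 0.2 log2 units, 7 moved by more (LAMA1 and LAMA2 with a pseudocount of 1) and 0 changed sign with a called value. A pseudocount of 1 also ended the LAMA4 call in PC3-Epi (log2 fold change 0.90), leaving 0 chains higher and 2 lower. No paired analysis was possible because the tables hold 1 pooled value per group, and leaving out replicates could not be run for that reason.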
